A study of Mus musculus with 4 samples.

Results

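The steroid hormone receptors described here are 4 genes, Esr1, Pgr, Nr3c1 and Nr3c2, out of 32287 features counted in single cells of the fetal mouse penis. They were taken by symbol from the deposited count matrices, and each symbol matched 1 feature. Penises were collected at embryonic day 16.5, while the urethra closes, and single-cell libraries were made with a 10x 3' kit. DTA- embryos lacked the Nr5a1-Cre transgene and DTA+ embryos carried it; both carried 1 floxed DTA allele at the Rosa locus, which codes for a diphtheria toxin fragment once Cre has removed its stop, so the controls held the silent toxin allele too although their genotype label reads WT. The study's methods also list a floxed tdTomato reporter at Rosa in the ablation cross, which these labels do not name. There were 2 libraries of each group, all from males, and the labels do not tie a library to its embryos, so that the p-values measure the spread between libraries, which may be technical. According to the study, Nr5a1-Cre is also active outside the penis, and the ablated embryos had small testes and no adrenal glands, which limits the model: loss of the Nr5a1 lineage in the penis and loss of these steroid-producing glands cannot be told apart in these groups.

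Steroid receptors are transcription factors that wait in the cell with chaperones of the Hsp90 family and bind DNA once their hormone has entered. Esr1 encodes estrogen receptor alpha and Pgr the progesterone receptor, whose gene is a well-known target of estrogen receptor in the female reproductive tract. Nr3c1 encodes the glucocorticoid receptor, present in nearly every tissue, and Nr3c2 the mineralocorticoid receptor, which is best known from kidney epithelium and also binds glucocorticoids.

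Of 47040 barcodes, 31132 passed the limits on UMIs (unique molecular identifiers, each standing for 1 captured RNA molecule), mitochondrial and hemoglobin counts: 6573 and 7874 cells in the DTA- libraries and 7875 and 8810 in the DTA+ libraries, with median UMI counts of 4700, 4077, 3551 and 3560. The DTA+ cells were thus shallower than the DTA- cells. Clustering without the 4 receptors gave 27 clusters, of which 19 were mesenchymal and held 28285 cells, and 20 carried enough of their class's markers to be named. The subdermal prepuce (cluster 13) lay mostly in the DTA- libraries and the Iyd, C130073E24Rik and Akap12 cluster (17) almost wholly in the DTA+ libraries, so neither was compared between genotypes, nor were the general prepuce (11) and smooth muscle (21). The remaining 23 clusters had at least 20 cells in every library. There were 298 kept cells whose barcode occurred in more than 1 library. Of 6 markers of steroid-producing cells, Cyp11a1 had 84, 81, 162 and 77 UMIs and Star 28, 47, 48 and 68 UMIs in the libraries in the same order. Hsd3b1 and Insl3 had 0 UMIs in all 4 libraries, and Cyp17a1 and Nr5a1 had 0 UMIs in 3 libraries and 2 UMIs each in DTA+ replicate 2. The part of such cells in the results was not tested.

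The receptors differed widely in how often a cell held at least 1 UMI of them. Over all kept cells, Nr3c1 was detected in 8288 cells (26.6%), Esr1 in 1453 (4.67%), Nr3c2 in 198 (0.636%) and Pgr in 77 (0.247%). Nr3c1 had a UMI in 26.9% of mesenchymal cells and in 23.8% of the others, and Esr1 in 5.03% and 1.09%. It was found in 0 of 363 smooth muscle cells, which allows a share of up to 0.826%, and in 0 of 223 macrophages, which allows up to 1.35%, at median UMI counts of 4842 and 5314. Free RNA in droplets can add UMIs to cells that do not express a gene, and erythroid cells give a rough measure of it. Of 570 such cells, at a median of 4732 UMIs, 17.2% held Nr3c1, 2.63% Esr1, 0.702% Pgr and 0.526% Nr3c2. The last 2 shares rest on 4 and 3 cells. Each of 7 general mesenchymal markers was detected in at least 20% of the erythroid cells. Their shares may therefore exceed the free RNA, and whether these droplets also held mesenchymal cells was not tested. The share of Pgr in the mesenchyme, 0.233%, was below the erythroid share, and that of Nr3c2, 0.654%, was close to it, so neither share is read as expression.

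Esr1 lies at chr10:4611593-5005614 on the plus strand of GRCm38 and spans 394.0 kb. No exon of another gene on the same strand overlapped one of its exons in GENCODE vM21. Its level is given as CPM, the UMIs of the gene summed over the cells of a library or cluster and scaled to a common library total by TMM (trimmed mean of M-values). Over all cells it stood at 5.74 and 4.11 CPM in the DTA- libraries and at 21.5 and 22.2 CPM in the DTA+ libraries. In the mesenchyme it was 6.21 and 4.53 CPM against 23.3 and 23.5 CPM. Both DTA+ libraries thus lay well above both DTA- libraries, and the 2 DTA+ libraries were nearly equal.

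Esr1 rose in the DTA+ mesenchyme by 2.12 ± 0.19 on the log2 scale (SE, n = 2 libraries a group, edgeR quasi-likelihood adjusted p = 0.0108), from 5.37 ± 1.19 to 23.4 ± 0.114 CPM (mean ± SD). In this comparison 1.14% of 15199 genes were called at an adjusted p under 0.05 in either direction, and Esr1 was the 1 receptor of 4 among them. Over all cells, where 0.488% of 15977 genes were called, it rose by 2.15 ± 0.19 (edgeR adjusted p = 0.0198), and again it was the 1 receptor called. The share of mesenchymal cells with an Esr1 UMI was 2.52% and 1.69% in DTA- and 7.48% and 7.51% in DTA+, although DTA+ cells had fewer UMIs. In erythroid cells of the same libraries it was 1.49% and 1.46% in DTA- and 5.42% and 1.54% in DTA+, over 65 to 205 cells a library. The DTA- mesenchyme lay little above this erythroid share, which rests on 2 and 3 DTA- cells with a UMI. Over all non-mesenchymal cells the share was 0.565% and 0.340% in DTA- and 2.07% and 1.66% in DTA+. With every cell thinned to 1000 UMIs the mesenchymal shares became 0.665%, 0.558%, 2.44% and 2.07%, and the ratio of the group means was 3.68.

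**Figure D1:**
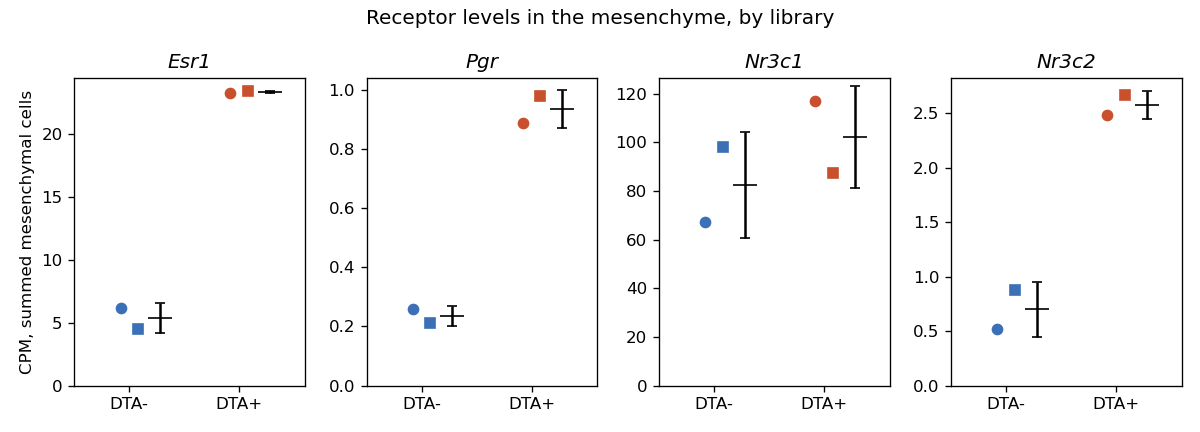
Level of each receptor in CPM over the summed mesenchymal cells, with 1 point per library (circles replicate 1, squares replicate 2; blue DTA-, red DTA+) and a black bar for the group mean ± SD. The DTA+ points of Esr1, Pgr and Nr3c2 lie above both DTA- points, and those of Nr3c1 overlap them. Those of Pgr and Nr3c2 rest on few UMIs, and the share of all genes so separated was not computed. Of these receptors, Esr1 alone passed the edgeR test at an adjusted p under 0.05.

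Among the 23 clusters compared, Esr1 in the DTA- penis was highest in cluster 7, an osteogenic-like mesenchyme with Runx2, Dlx5, Sp7, Alpl and Dlx6, genes of the bone-forming programme. There it stood at 57.9 and 53.2 CPM, and 21.0% and 13.9% of cells held a UMI. The Rprm, Dsc3, Wnt10a and Notum cluster (12) came next at 19.4 and 28.2 CPM. The Hand2-led cluster (16) was named osteogenic from Dlx5, Alpl and Dlx6, while Runx2 and Sp7 were not among its enriched markers. It followed at 6.07 and 7.11 CPM, and the corpus cavernosum (2), the future erectile body, at 5.59 and 6.53 CPM. The ranges of these last 2 overlapped, whereas cluster 7 lay above cluster 12 and cluster 12 above cluster 16 in both libraries. Cluster 7 held 5.80% and 3.02% of DTA- cells but 53.8% and 29.5% of their Esr1 UMIs.

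In the DTA+ penis the distribution was broader. Cluster 7 was still highest, at 111 and 90.0 CPM, but held 17.9% and 25.8% of Esr1 UMIs. Cluster 17, the Iyd cluster nearly absent from DTA-, reached 101 and 83.5 CPM. The Hedgehog-responsive periurethra followed at 50.5 and 48.9 CPM, then cluster 12 at 42.9 and 40.6 CPM and the Foxl2 periurethra at 42.2 and 35.2 CPM. Among the 16 mesenchymal clusters with at least 20 cells in every library, both DTA+ libraries lay above both DTA- libraries in 15. The libraries overlapped in 1, the Irx1 and Col7a1 cluster (3), at 2.23 and 4.05 CPM against 3.63 and 2.93 CPM. Over all 23 clusters, 20 lay above and 3 overlapped. The 20 include endothelium, where 0 and 0 DTA- cells and 1 and 1 DTA+ cells held a UMI. The share of all genes so separated was not computed.

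The periurethra is the mesenchyme that flanks the urethral epithelium. Its Hedgehog-responsive cells (cluster 10) had the largest log2 fold change of Esr1 among the 6 clusters with a call. In these cells, which express Ptch1, Gli1, Hhip and Foxf1, Esr1 had 5 and 4 UMIs in the DTA- libraries and 29 and 74 in the DTA+ libraries. This gave 3.20 and 3.49 CPM against 50.5 and 48.9 CPM, a rise of 3.85 ± 0.40 on the log2 scale (edgeR adjusted p = 9.67e-08; 3.8% of 9501 genes called). A UMI was found in 1.205% and 1.44% of these cells in DTA- and in 13.3% and 13.7% in DTA+. The DTA- shares were no higher than those of erythroid cells in the same libraries, 1.49% and 1.46%. The base of this fold change is therefore uncertain. In the Foxl2 periurethra (cluster 9), marked by the forkhead gene Foxl2 and by Sall3, Esr1 went from 5.37 and 3.02 CPM to 42.2 and 35.2 CPM, a rise of 3.12 ± 0.37 (edgeR adjusted p = 0.00228; 3.18% of 9647 genes called).

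Other mesenchyme rose too. In the Thbd and Ptgis cluster (6) Esr1 went from 1.24 and 0.587 CPM, 3 and 1 UMIs, to 11.7 and 12.01 CPM. The rise was 3.52 ± 0.56 on the log2 scale (edgeR adjusted p = 0.000805, 10.9% of 9900 genes called). In DTA-, 0.602% and 0.242% of these cells held an Esr1 UMI, below the erythroid 1.49% and 1.46%. In the Sostdc1 and Wnt16 cluster (0) it went from 3.999 and 3.28 CPM to 18.8 and 20.8 CPM, a rise of 2.46 ± 0.31 (edgeR adjusted p = 0.00111; 2.5% of 11171 genes called). In the corpus cavernosum (2), with its cartilage-type genes Sox9 and Col2a1, it rose by 2.28 ± 0.29 to 28.0 and 31.1 CPM (edgeR adjusted p = 0.000417; 7.73% of 10717 genes called). This call was lost without either DTA+ library, with adjusted p of 0.561 without replicate 1 and 0.485 without replicate 2, at log2 fold changes of 2.36 and 2.20.

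In cluster 7, where Esr1 was already high, the rise was smaller on the log2 scale, at 0.82 ± 0.20 (edgeR adjusted p = 0.0311, 2.88% of 9490 genes called). In CPM it was about as large as in the Hedgehog-responsive periurethra and larger than in the other clusters with a call. It lost its call without DTA- replicate 1, DTA- replicate 2 or DTA+ replicate 1 (adjusted p 0.226, 0.172 and 0.220), and thinning to 1000 UMIs brought it to 0.44 (adjusted p = 0.632). Clusters 12, 15 and 16 had log2 fold changes of 0.89 ± 0.34, 3.17 ± 0.78 and 2.23 ± 0.54 that did not pass the test (edgeR adjusted p = 0.335, 0.154 and 0.0618). In all, Esr1 was called in 6 of the 9 clusters in which it passed the filter on low counts, each time higher in DTA+. The filter asks for enough UMIs in as many libraries as a group holds, so either group alone can carry a gene past it. In clusters 6, 9, 10, 15 and 16 the DTA- libraries held too few Esr1 UMIs, so only DTA+ could. The direction in these clusters was thus fixed in part by the filter.

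**Figure D2:**
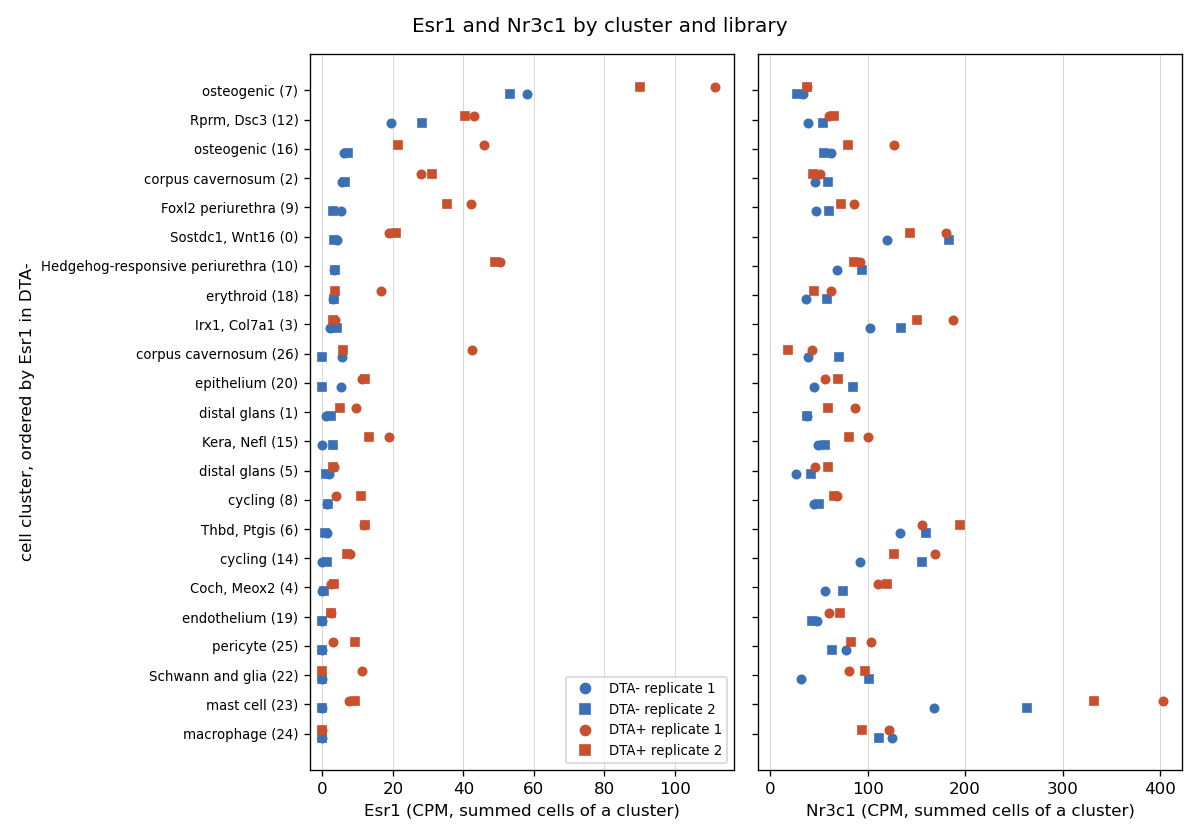
Esr1 (left) and Nr3c1 (right) in CPM over the summed cells of each of the 23 clusters with at least 20 cells in every library, ordered by the Esr1 level in DTA-; circles are replicate 1, squares replicate 2, blue DTA- and red DTA+. Cluster 7 stands at the top for Esr1 at 57.9 and 53.2 CPM in DTA- and near the bottom for Nr3c1 at 34.0 and 27.3 CPM.

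The size of the Esr1 change was compared between populations by the interaction of population and genotype. Each population was set against the rest of the mesenchyme of the same libraries. This rest holds clusters 11, 13 and 17, whose cell numbers changed with genotype. Their part in the differences was not tested. On the log2 scale, cluster 7 changed less than the rest, by -1.81 ± 0.26 (edgeR adjusted p = 3.01e-09, 1.97% of 14747 genes called). The Hedgehog-responsive periurethra changed more, by 1.85 ± 0.48 (edgeR adjusted p = 0.0113; 1.76% of 14604 genes called). This second call was lost without DTA- replicate 1, DTA- replicate 2 or DTA+ replicate 2, with adjusted p of 0.651, 0.0657 and 0.105. The Foxl2 periurethra differed from the rest by 1.12 ± 0.45, which did not pass (edgeR adjusted p = 0.307). The Irx1 and Col7a1 cluster (3) had a larger shortfall than cluster 7, -2.25 ± 0.54, which did not pass either (edgeR adjusted p = 0.0653).

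The clusters of the prepuce, the skin fold around the glans, and the Iyd cluster (17) changed their make-up with genotype. RPCA integration, which aligns libraries before clustering, was used for them. Its subdermal prepuce had 233 and 492 DTA- cells and 315 and 298 DTA+ cells, against 227, 711, 28 and 7 without integration. Its Iyd, Vsnl1 and Neto1 cluster, which no marker class named, had 162, 436, 600 and 370 cells, against 1, 8, 521 and 284. The DTA+ cells of the first and the DTA- cells of the second thus came mostly from other clusters. The groups may therefore hold unlike cells. The integrated general prepuce had 7 cells in DTA- replicate 2 and was not compared. In the Iyd, Vsnl1 and Neto1 cluster Esr1 stood at 3.84 and 6.998 CPM in DTA- and 52.4 and 41.6 CPM in DTA+, a rise of 2.96 ± 0.33 (edgeR adjusted p = 0.000192; 5.58% of 10177 genes called). The DTA- replicate 1 level, 3.84 CPM over 162 cells, rests on few UMIs. In the integrated subdermal prepuce, with Ly6a and Dpt, Esr1 had 1 and 2 UMIs against 13 and 10. The rise was 3.17 ± 0.67 (edgeR adjusted p = 0.022, 2.45% of 9515 genes called). It lost its call without DTA- replicate 1, DTA- replicate 2 or DTA+ replicate 2, at log2 fold changes of 3.16 to 3.30. The DTA- libraries held too few Esr1 UMIs here to carry it past the filter on low counts. Its direction was thus fixed in part by the filter.

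The rise over the mesenchyme was also computed with the share of each cluster held fixed. Weighted by the cell numbers of all libraries together, the 16 mesenchymal clusters gave an Esr1 level of 6.76 and 7.09 CPM in DTA- and 23.9 and 21.3 CPM in DTA+, a ratio of the means of 3.26. Each DTA+ library was at least 3.004 times each DTA- library. Leaving out the 3 mesenchymal clusters with under 20 cells in a library gave a log2 fold change of 1.97 (edgeR adjusted p = 0.0148), and leaving out cluster 7 gave 2.63 (edgeR adjusted p = 0.00133); both were chosen after seeing the data.

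**Figure D3:**
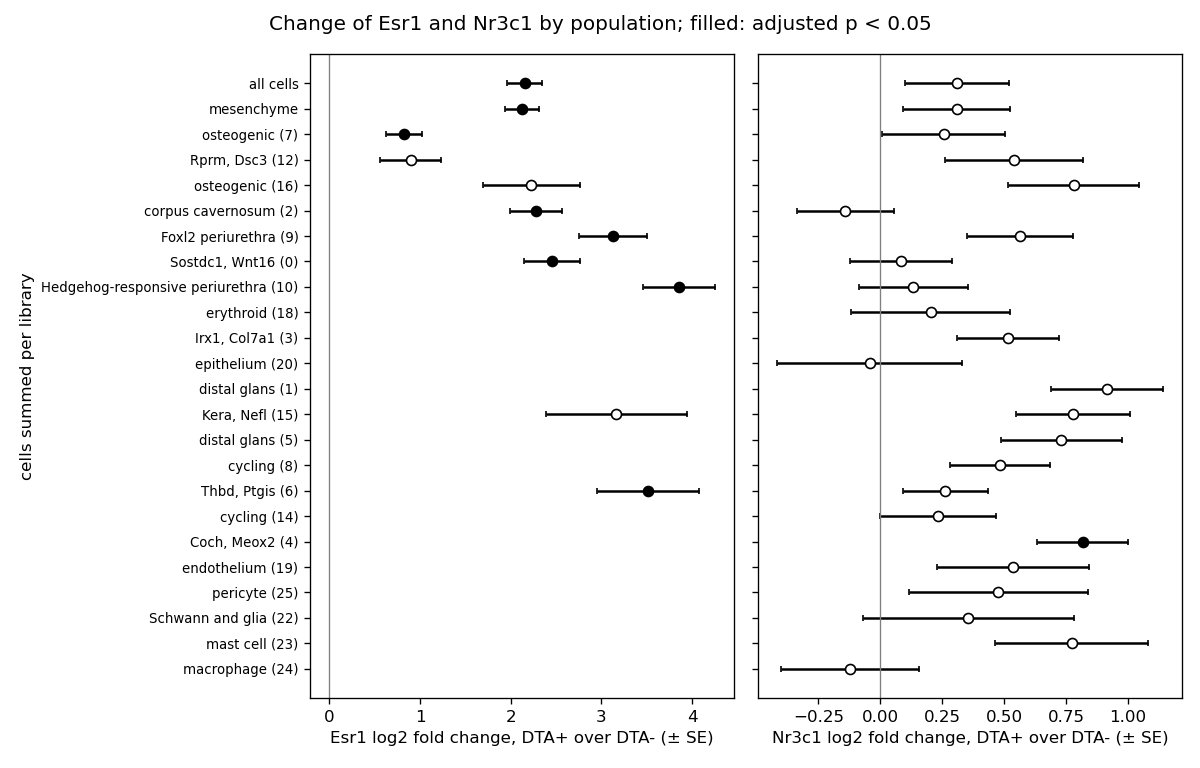
Log2 fold change of DTA+ over DTA- with its SE for Esr1 (left) and Nr3c1 (right) in all cells, the mesenchyme and each cluster where the gene passed the filter on low counts; filled points have an edgeR adjusted p under 0.05. Every Esr1 point lies above 0, from 0.82 in cluster 7 to 3.85 in the Hedgehog-responsive periurethra. In clusters 6, 9, 10, 15 and 16 Esr1 passed the filter through its DTA+ counts only. The Nr3c1 points lie between -0.14 and 0.92.

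Pgr lies at chr9:8899833-8968611 on the plus strand and Nr3c2 at chr8:76899442-77245012 on the plus strand of GRCm38. RefSeq gives a window of 250 bases before and 50 after the start of each, and of the first of 2 Esr1 starts, for GRCm38.p6. The windows are shown for Esr1, Pgr and Nr3c2, and none is shown for Nr3c1. Capitals mark a CCAAT box (CCAAT), a GC box (GGGCGG) or a TATA box (TATAAA) on either strand.
Esr1, chr10:4611739-4612038, plus strand: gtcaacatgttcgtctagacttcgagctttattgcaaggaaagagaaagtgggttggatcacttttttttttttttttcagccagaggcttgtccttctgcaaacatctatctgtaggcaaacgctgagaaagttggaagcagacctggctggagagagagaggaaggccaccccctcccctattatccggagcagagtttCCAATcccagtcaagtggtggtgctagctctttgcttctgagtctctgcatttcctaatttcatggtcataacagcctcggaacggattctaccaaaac
Pgr, chr9:8899583-8899882, plus strand: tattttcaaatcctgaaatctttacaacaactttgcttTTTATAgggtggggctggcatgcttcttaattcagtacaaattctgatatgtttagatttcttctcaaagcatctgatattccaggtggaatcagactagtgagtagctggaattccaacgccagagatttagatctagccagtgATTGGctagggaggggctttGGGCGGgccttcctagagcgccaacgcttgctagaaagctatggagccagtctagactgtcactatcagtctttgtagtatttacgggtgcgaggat
Nr3c2, chr8:76902080-76902379, plus strand: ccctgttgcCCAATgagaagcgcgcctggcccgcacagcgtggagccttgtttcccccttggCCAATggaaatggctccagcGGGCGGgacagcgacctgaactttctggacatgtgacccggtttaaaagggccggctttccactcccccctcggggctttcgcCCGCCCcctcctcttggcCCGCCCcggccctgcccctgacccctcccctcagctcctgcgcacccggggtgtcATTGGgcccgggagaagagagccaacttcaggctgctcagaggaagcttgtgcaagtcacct

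The Esr1 window held 1 CCAAT box, the Pgr window 1 CCAAT box, 1 GC box and 1 TATA box, and the Nr3c2 window 3 CCAAT boxes and 3 GC boxes. Of 32851 promoter windows of 300 bases, 37.4% held CCAAT, 35.7% GGGCGG and 13.6% TATAAA on either strand. The half-site bound by the glucocorticoid, mineralocorticoid and progesterone receptors (TGTTCT, in 19.0% of windows) and that bound by estrogen receptor (AGGTCA, in 16.3%) were in none of the 3 windows nor in that of the second Esr1 start, at chr10:4709908-4710207. These matches describe letters only, and their part in the expression values was not tested. GC content was 46.3% for the Esr1 window, 43.7% for Pgr and 65.7% for Nr3c2.

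Pgr was close to the limit of detection. The mesenchyme held 7 and 6 Pgr UMIs in the DTA- libraries and 24 and 32 in the DTA+ libraries, or 0.260 and 0.211 CPM against 0.891 and 0.982 CPM. The log2 difference of 1.98 ± 0.41 did not pass the test (edgeR adjusted p = 0.0786). The DTA- libraries held too few Pgr UMIs to carry it past the filter on low counts, here and over all cells. Its direction was thus fixed in part by the filter. Over all cells the UMIs were 10 and 6 against 31 and 36 (edgeR adjusted p = 0.115). In DTA+ the corpus cavernosum (cluster 2) held 9 and 6 of these UMIs, against 1 and 0 in DTA-. The general prepuce (11) held 4 and 5 against 0 and 0, over 280 and 642 DTA+ cells against 97 and 13 DTA- cells. Among the 23 clusters compared, both DTA+ libraries lay above both DTA- libraries in 5 and below them in 1. The groups overlapped in 17. The share of all genes so separated was not computed. No cluster had enough Pgr to be tested.

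Nr3c2 had 14 and 25 UMIs in the DTA- mesenchyme and 67 and 87 in the DTA+ mesenchyme. These were 0.520 and 0.877 CPM against 2.49 and 2.67 CPM, and the log2 difference of 1.87 ± 0.33 fell just short of the threshold (edgeR adjusted p = 0.0557). The call was made without DTA+ replicate 1 (adjusted p = 0.00539), without DTA+ replicate 2 (adjusted p = 0.0171), with the replicate number as a block (adjusted p = 0.00253) and with DESeq2 (adjusted p = 0.0151). It was not made without DTA- replicate 1 (adjusted p = 0.108) or DTA- replicate 2 (adjusted p = 0.0626), after thinning (adjusted p = 0.0505) or without the upper UMI limit (adjusted p = 0.0662), and 10 of 18 alternatives left it short of the threshold. The Sostdc1 and Wnt16 cluster (0) was the 1 cluster in which it could be tested. It had 3 and 9 UMIs against 16 and 15 there (log2 difference 1.62 ± 0.50, edgeR adjusted p = 0.141). Only DTA+ held enough UMIs in this cluster to carry Nr3c2 past the filter on low counts. In the Foxl2 periurethra it had 1 and 0 UMIs against 6 and 14, and in the general prepuce 1 and 0 against 5 and 22, the latter over 97 and 13 cells against 280 and 642. After thinning, 0.0215% of DTA- and 0.245% of DTA+ mesenchymal cells held a UMI, a level near that of single UMIs.

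Nr3c1, on the minus strand at chr18:39410545-39519421 of GRCm38, was found in every cluster. In the mesenchyme it stood at 67.1 and 98.0 CPM in DTA- and 117 and 87.4 CPM in DTA+. The groups overlapped, and the log2 difference of 0.31 ± 0.21 did not pass the test (edgeR adjusted p = 0.507). The 2 DTA- libraries differed from each other by more than the group means did. The share of mesenchymal cells with a UMI was 22.7% and 28.0% in DTA- and 30.9% and 25.5% in DTA+.

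Mast cells had the highest Nr3c1 level of the DTA- penis, at 168 and 263 CPM, followed by the Sostdc1 and Wnt16 cluster (0) at 120 and 183 CPM and the Thbd and Ptgis cluster (6) at 133 and 160 CPM. Neighbours in this order overlapped. The S-phase and mitotic cluster 14 (92.3 and 156 CPM), macrophages (124 and 112 CPM) and the Irx1 and Col7a1 cluster (3; 103 and 134 CPM) came next. Cluster 7 (34.0 and 27.3 CPM) and the 2 distal glans clusters (1 at 37.7 and 38.2 CPM; 5 at 26.3 and 41.7 CPM) were at the low end. The mast cell cluster also had S100a8 and S100a9, genes of neutrophils, among its leading genes.

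Nr3c1 passed the test in 1 of 22 clusters. In the Coch, Meox2 and Wif1 cluster (4) it rose from 56.5 and 74.5 CPM to 110 and 120 CPM, by 0.82 ± 0.18 (edgeR adjusted p = 0.00472; 9.25% of 10013 genes called), and it lost its call without DTA+ replicate 2 (adjusted p = 0.0562). Over both distal glans clusters summed, the Msx1 and Msx2 mesenchyme of the penis tip, it rose from 32.5 and 39.3 CPM to 70.9 and 58.5 CPM, by 0.85 ± 0.18 (edgeR adjusted p = 0.0234; 3.16% of 11308 genes called). That call was lost without DTA- replicate 1 (adjusted p = 0.165) or DTA+ replicate 1 (adjusted p = 0.0925). In the periurethra the log2 differences were 0.13 ± 0.22 for the Hedgehog-responsive and 0.57 ± 0.21 for the Foxl2 cells (edgeR adjusted p = 0.875 and 0.233).

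Across the 23 clusters the DTA- levels of Esr1 and Nr3c1 had a Pearson r of -0.38 on the log2(CPM + 5) scale. This is given as a description, since the clusters come from the same 2 libraries. By the same measure over 10542 genes, the genes most like Esr1 were D030025E07Rik (0.91), Pcp4 (0.90), Dlx6os1 (0.86), Barx1 (0.85) and Sall4 (0.84). D030025E07Rik and Dlx6os1 were among the leading genes of cluster 7. The genes most like Nr3c1 were Hacd4 (0.80), Fosl2 (0.77), Vwa5a (0.76), Nr4a3 (0.75) and Gpx4 (0.73). Neither Pgr nor Nr3c2 reached 20 CPM in any cluster, and their nearest genes, Krt8, Slc2a4, Smad9, Tatdn3 and Rbp4 (0.66 to 0.72) for Pgr and Enpp3, Ica1, Shank3, Ccl21a and Sox17 (0.79 to 0.82) for Nr3c2, rest on few UMIs.

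Esr1 and Nr3c1 occurred in the same cell about as often as their separate shares give. Of 1453 cells with Esr1, 385 also held Nr3c1, against 344 from the product of the 2 shares within each library and cluster, a ratio of 1.12. The ratios of the 4 libraries ran from 1.07 to 1.16. After thinning to 1000 UMIs there were 28 such cells against 30.9, a ratio of 0.906. Pgr and Esr1 shared 6 cells against 5.16 from the product, Nr3c2 and Esr1 16 against 12.6, and Nr3c2 and Nr3c1 66 against 61.4, while no cell held both Pgr and Nr3c2 (0.464 from the product). Cells with UMIs of exactly 2 receptors made up 0.487% and 0.495% of the DTA- libraries and 2.57% and 2.29% of the DTA+ libraries. A further 3 and 2 DTA+ cells, and 0 DTA- cells, held 3 receptors.

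Genes for proteins that act with the receptors were counted over the mesenchyme, where 1.14% of all genes were called. Of 12 chaperones and immunophilins tested, 1 fell and 0 rose, and the list's median log2 fold change was -0.28 against 0.00 for all genes. Fkbp5, an immunophilin that lowers hormone binding of the glucocorticoid receptor and is itself induced by it, fell by 2.69 on the log2 scale (SE 0.12, edgeR adjusted p = 0.000804). Hsp90ab1, the most abundant chaperone here, stood at 2674 and 2566 CPM against 2596 and 2438 CPM (log2 difference -0.06, edgeR adjusted p = 0.753). In cluster 6, where 10.9% of all genes were called, Hsp90aa1 and Bag1 were called lower. Hsp90aa1 was also called lower in the Foxl2 periurethra (9), where 3.18% were called. Of 11 coactivators and 7 corepressors, 0 were called by edgeR in the mesenchyme. Ncoa2 among the coactivators had a log2 difference of 0.65 ± 0.13 (edgeR adjusted p = 0.0717) and was called higher in the corpus cavernosum (2), cluster 4 and cluster 6. The corepressor Ncor1 had 0.13 ± 0.11 (edgeR adjusted p = 0.597). Of 7 other steroid-binding or related receptors, 5 were tested and 0 called, with Pgrmc1 at 314 and 275 CPM against 313 and 343 CPM.

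Known target genes of the glucocorticoid and mineralocorticoid receptors were lower in part. This list, like the others here, was chosen with earlier results of these data known, so its counts are a description. In the mesenchyme, 21 of its 22 genes were tested: Fkbp5, Zbtb16 and Mt2 fell and Pik3ip1 rose. There 1.14% of all genes were called, and the list's median log2 fold change was -0.44. Zbtb16, a zinc finger transcription factor, went from 14.4 and 17.1 CPM to 7.61 and 7.09 CPM (log2 fold change -1.10 ± 0.16, edgeR adjusted p = 0.0385). Mt2, a metallothionein that binds zinc, went from 11.5 and 30.5 CPM to 1.93 and 0.982 CPM (-3.87 ± 0.54, edgeR adjusted p = 0.0312). Pik3ip1, a negative regulator of PI3 kinase, rose from 11.9 and 11.6 CPM to 20.7 and 21.5 CPM (0.85 ± 0.13, edgeR adjusted p = 0.0431). The last 3 calls were lost without 1 or more libraries: Zbtb16 without either DTA- library (adjusted p 0.0507 and 0.0626), Mt2 without DTA- replicate 2 (adjusted p = 0.0564), and Pik3ip1 without any 1 of the 4 (adjusted p 0.0538 to 0.0926). Zbtb16 and Pik3ip1 also lost their calls after thinning to 1000 UMIs (adjusted p = 0.0592 and 0.0936). The DTA- libraries themselves differed in several of these genes, among them Mt2 and Dusp1 (255 and 487 CPM).

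**Figure D4:**
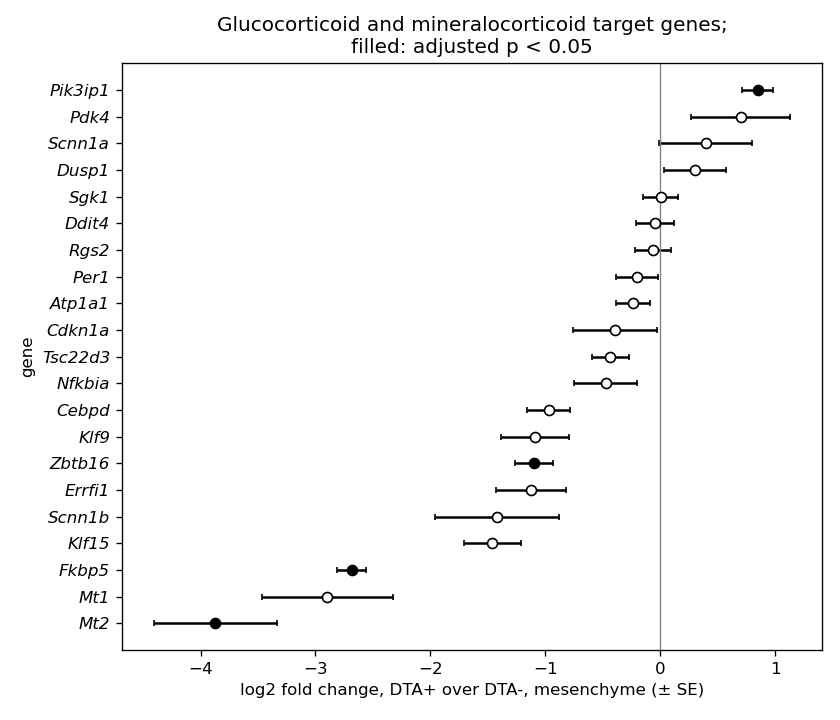
Log2 fold change of DTA+ over DTA- in the mesenchyme with its SE for the 21 tested target genes of the glucocorticoid and mineralocorticoid receptors; filled points have an edgeR adjusted p under 0.05. Fkbp5, Mt2 and Zbtb16 lie below 0 and Pik3ip1 above it among the filled points.

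The same list was counted in the 6 clusters with an Esr1 call, beside the share of all genes called there in either direction. Because of how the list was chosen, these counts are no test of it. In the Hedgehog-responsive periurethra 8 of 16 tested genes fell and 0 rose (3.8% of all genes called), and in the Foxl2 periurethra 5 of 17 fell and 0 rose (3.18%). In cluster 6, 9 of 16 fell and 2 rose (10.9%), and in cluster 0, 7 of 18 fell and 0 rose (2.5%). In the corpus cavernosum (2), 5 of 17 fell and 2 rose (7.73%), and in cluster 7, 1 of 15 fell and 2 rose (2.88%). Fkbp5 was called lower in all 6 clusters in which Esr1 was called.

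Of 10 estrogen target genes, 9 were tested in the mesenchyme and 0 were called by edgeR; Ccnd1, which drives the cell cycle, had a log2 difference of 0.24 ± 0.11 and Cxcl12, a chemokine, of 0.41 ± 0.15 (edgeR adjusted p = 0.31 and 0.23). In the Hedgehog-responsive periurethra, where Esr1 rose most, 3 of 7 fell (Igf1, Nrip1 and Stc2, named after their values were seen) and 0 rose, where 3.8% of all genes were called. Of the other 5 clusters with an Esr1 call, Cxcl12 was called higher and Igf1 lower in clusters 0 and 6, Ccnd1 and Stc2 lower in cluster 2, Ccnd1 higher and Igf1 lower in cluster 7, and Stc2 lower in cluster 9. Of 10 progesterone target genes, 7 were tested in the mesenchyme and 2 fell, Fkbp5 and Zbtb16, which the glucocorticoid list also holds; Nr2f2, a nuclear receptor of mesenchyme, had 0.81 ± 0.18 (edgeR adjusted p = 0.0933) and was called higher in both periurethral clusters and the corpus cavernosum (2).

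Enzymes that make or convert receptor ligands were few. Of 16 listed, 15 were in the files and 8 were tested in the mesenchyme. There 1 fell and 0 rose, where 1.14% of all genes were called. Srd5a2, the steroid 5-alpha reductase of the genital tract, went from 33.9 and 58.5 CPM to 14.2 and 9.69 CPM (-1.95 ± 0.29, edgeR adjusted p = 0.039) and lost its call without DTA- replicate 2 (adjusted p = 0.0626). Cyp19a1, the aromatase that makes estrogen, was at 0.0372 and 0 CPM in the DTA- mesenchyme and at 0 and 0.0307 CPM in the DTA+ mesenchyme. Hsd11b2, which inactivates glucocorticoids, was at 2.97 and 3.97 CPM against 1.26 and 1.04 CPM (-1.59 ± 0.28, edgeR adjusted p = 0.0557). Among the 6 clusters with an Esr1 call, Srd5a2 was called lower in clusters 0, 6, 7, 9 and 10. Hsd11b2 and Hsd17b7 were called lower in cluster 6, and Hsd17b11 higher in clusters 2 and 6. The shares of all genes called in these clusters are given above. The part of these enzymes in the change of Esr1 was not tested.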

How the data were processed

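The authors deposited whole-number UMI counts per gene and barcode for each library, made with Cell Ranger 4.0.0 against mm10 per the labels and not normalized. The members and gene lists were chosen with earlier results of these data known.

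Cells with 1000 to 7500 UMIs, under 25% mitochondrial counts, under 25% Hba and under 50% Hbb counts were kept. Seurat 5.3.0 clustered all libraries together on 2000 variable genes (the receptors and listed genes left out), 30 principal components and resolution 0.8. A cluster was named from at least 3 enriched markers of a class. Scrublet's own cut called 0 doublets, so leaving out the highest scores was an alternative. Where every library had at least 20 cells, summed counts of a population entered edgeR 4.0.16 with TMM scaling, its default expression filter, the quasi-likelihood test and genotype as the 1 term. P-values were adjusted by Benjamini-Hochberg over all genes tested. A population was compared with the rest of the mesenchyme by an interaction term, with library as a block. SE is the log2 fold change over the square root of F. The scripts were tested on simulated counts. Summed UMIs per library ranged from 29722067 to 33839196; intervals and limits cover counting error only.

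Named genes were the receptors, every listed gene called in the mesenchyme or over all cells, otherwise the 4 most abundant of a list (some of these are given only in the counts), and the 5 genes most like each receptor. Hsp90ab1, Hsp90aa1, Bag1, Dusp1, Nr2f2, Igf1, Nrip1, Stc2, Cyp19a1, Hsd11b2, Hsd17b7 and Hsd17b11 were named after their values were seen. Alternatives were DESeq2 1.42.0, the edgeR likelihood ratio test, no filter on low counts, a replicate block, each library left out, cells thinned to 1000 UMIs, no upper UMI limit, RPCA integration, other resolutions and the listed genes kept among the variable genes. The labels do not say what libraries of the same replicate number share, and these deviated with r = -0.26 over 15199 genes. Whether libraries are tied across the groups was not tested. Some items are not reported here.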

Additional observations from a re-analysis of the deposited data

Results flagged for a closer look

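Both flagged results are differences between populations in how much Esr1 changed with genotype. They were tested as an interaction of population and genotype with edgeR (2 libraries a group). The rest of the mesenchyme holds clusters 11, 13 and 17, whose cell numbers changed with genotype. Their part in the differences was not tested.

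In the osteogenic-like cluster 7 the log2 change of Esr1 was 1.81 smaller than in the rest of the mesenchyme (difference -1.81 ± 0.26 SE, adjusted p = 3.01e-09). Its DTA- level, 57.9 and 53.2 CPM, was already above that of any other cluster tested, and the call held in all 8 alternatives, with differences from -1.98 to -1.62.

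In the Hedgehog-responsive periurethra (cluster 10) the change was larger than in the rest of the mesenchyme (difference 1.85 ± 0.48 SE, adjusted p = 0.0113). This call held in 3 of 8 alternatives, and the DTA- value rests on 5 and 4 UMIs. The DTA- share of cells with a UMI was no higher than in erythroid cells.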

How the results depend on the processing

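The Esr1 rise kept its direction and its call in all 12 alternatives over all cells (log2 1.88 to 2.41). It did so too in all 18 over the mesenchyme (1.86 to 2.63), all 14 in cluster 10 and all 15 in cluster 9. Among them was the one without shared barcodes where it was run. At resolution 0.4 and without the upper UMI limit no Hedgehog-responsive periurethra was named, so neither is among the 14. The Foxl2 periurethra had 2635 and 2653 cells there against 1375, so it was not the same population. The 15 of cluster 9 hold no fit after thinning to 1000 UMIs, whereas the 14 of cluster 10 do. As given above, in clusters 9 and 10 only DTA+ could carry Esr1 past the filter on low counts. The direction of Esr1 in these clusters was thus fixed in part by the filter. No log2 fold change changed sign, whereas the ratio of observed to product for Esr1 and Nr3c1 in 1 cell went from 1.12 to 0.906 after thinning. The number of genes called was less stable: 78 over all cells became 555 with DESeq2, 658 with the likelihood ratio test, 659 without the filter on low counts, 335 with the replicate block, 124 after thinning, 21 without the upper UMI limit and 90 to 264 with 1 library left out, and 173 in the mesenchyme became 623, 925, 1148, 581, 276 after thinning and 69 to 447. Crossed pairing of the replicate numbers gave 1668 and 1903 calls. Its values for single genes are left out of all counts of alternatives given here and of the statement on sign. The fit without DTA- replicate 2 gave the 69, and the cause was not tested. The crossed pairing, the fits without shared barcodes, without cluster 7 or without clusters of under 20 cells in a library, and the single integrated clusters were chosen after seeing the data.

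Pgr passed over all cells with the likelihood ratio test (1.97) and without the filter (1.96). In the mesenchyme Pgr passed with these (1.98, 1.97) and the replicate block (1.98). Where the filter was used, only DTA+ carried Pgr past it. Nr3c2 passed over all cells with DESeq2 (1.77), the likelihood ratio test (1.76), no filter (1.75), the replicate block (1.81) and without DTA+ replicate 1, with 1.39 to 2.28 over the libraries left out. In the mesenchyme it passed with these 4 (1.88, 1.87, 1.86, 1.90), without the highest doublet scores (1.87) and without cluster 7 (1.92), with 1.55 to 2.29 over the libraries left out. Its thinned detection share had a fold of 11.4 against 3.47.

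Calls were lost for Esr1 in cluster 2 without the filter (2.28), with 2.19 to 2.39 over the libraries left out, and in cluster 7 with DESeq2 (0.84), after thinning (0.44) and without the highest doublet scores (0.81), with 0.69 to 0.99. They were lost for Nr3c1 after thinning in cluster 4 (0.65) and the distal glans (0.83), with 0.62 to 1.02 and 0.70 to 0.99. Esr1 in the integrated subdermal prepuce gave 3.16 to 3.30 over 3 libraries left out, and could not be tested without DTA+ replicate 1. The cluster 10 difference from the rest of the mesenchyme lost its call with DESeq2 (1.85) and after thinning (1.82), with 1.51 to 2.09. Esr1 in clusters 15 and 16 was called in 3 of 8 and 7 of 9 alternatives.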
